A study of Rattus norvegicus and Homo sapiens with 12 samples.

Results

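The genes described are 31 genes of cholesterol synthesis, cholesterol handling and the SREBP system that accompanies them, taken by symbol from a list and matched by Ensembl identifier to the human count table, which lists 60107 genes. All 31 were found in the table, and 30 of them had enough reads to be among the 14316 genes tested. DU145, a human prostate cancer cell line, was profiled with RNA QuantSeq as the parental population (F0, 3 samples) and as the population obtained after education with mesenchymal stem cells (F2, 3 samples). F2 cells had been kept in conditioned media (CM) of purchased human MSCs in rounds of 72 h with 48 h of recovery between rounds, 2 rounds according to the sample labels and 3 according to the text of the series, and both populations were grown in DMEM with fetal bovine serum. The series text calls the samples biological replicates but does not say whether the 3 F2 samples came from separate selections, so n, SD and p describe the spread between samples, which may be technical. In bulk RNA, fewer cells that express a gene and less of its RNA per cell cannot be told apart.

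Cells make cholesterol from acetyl-CoA through mevalonate, squalene and lanosterol. When sterols in the endoplasmic reticulum run low, SCAP carries the precursors of the SREBP transcription factors to the Golgi, where proteases release the active factor, and INSIG proteins hold the complex back when sterols are plentiful. SREBF2 encodes the factor best known for the sterol genes and SREBF1 the factor best known for fatty acid synthesis, while the liver X receptors (LXR) respond to oxidised sterols by raising exporters such as ABCA1 and ABCG1. Rapidly growing epithelial tumours, prostate cancers among them, are known for active lipid synthesis.

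QuantSeq samples transcripts at their 3′ ends, with 1 fragment for each. Gene counts lay between 15879480 and 16479239 per library. Levels are given as CPM, the counts of a gene scaled to a common library total after TMM normalization, and a gene is called where the Benjamini-Hochberg adjusted p of edgeR's quasi-likelihood test, taken over all 14316 tested genes, was under 0.05. Of 4 epithelial genes, all expressed in every library, 3 rose in F2, namely the keratins KRT8 (log2 fold change 0.24, edgeR adjusted p = 0.019) and KRT18 (0.20, adjusted p = 0.0026) and the adhesion gene EPCAM (0.22, adjusted p = 0.044). CDH1, which encodes E-cadherin, fell (-1.27, edgeR adjusted p = 7.6e-07). With 1 library left out, KRT18 and CDH1 were called in all 6 fits, KRT8 in 3 and EPCAM in 1. The KRT8 values of the populations overlapped. The 4 genes summed to between 755 and 858 CPM in F0 and between 914 and 936 CPM in F2. The prostate secretory genes KLK2 and KLK3 held 0 and 1 count in all. Of 10 MSC markers, 5 (LUM, POSTN, THY1, CXCL12 and SPARC) had 0 counts in all libraries and 8 never exceeded 3 counts in a library, the other 2 were COL1A1 and COL1A2, and the list summed to between 2.54 and 3.51 CPM in F0 and between 1.79 and 2.81 CPM in F2. Mitochondrially encoded genes took 5.7% to 6.0% of gene counts in F0 and 10.2% to 10.6% in F2. Of the reads in genes, outside genes or ambiguous, those outside genes were 9.60% to 10.02% in F0 and 11.3% to 11.9% in F2, and ambiguous reads 1.49% to 1.502% in F0 and 1.36% to 1.3997% in F2. Neither range overlapped, and the part of these shifts in the results below was not tested. With those genes left out, the 9 members called below were all called again.

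Of the 30 tested members, 8 fell in F2 (MVD, IDI1, FDFT1, SQLE, DHCR7, SREBF1, FASN and FADS1), 1 rose (SC5D) and 21 were not called. The share that fell was 26.7%, where 8.67% of all tested genes fell, and the share that rose was 3.33%, against 9.49% of all tested genes. In either direction, 9 of 30 members were called, against 18.2% of all genes. Most members are well expressed, and among genes with a mean of at least 10 CPM, a background chosen after the data were seen, 7 of 25 members fell (28%) against 10.9%, and 1 rose against 12.4%. All changes were small. On the log2 scale, the change from F0 to F2 in single members lay between -0.50 (SREBF1) and 0.44 (ABCA1, not called), with a median of -0.083, where the median over all tested genes was -0.0025. The 3 F2 libraries all lay below the 3 F0 libraries for 12 members (40%), against 17.1% of all tested genes, and all above for 4 members, against 16.9%. The direction of small changes depends on scaling. By library size alone, without TMM, the median over all genes shifted to -0.092, 14 members were called lower and 0 higher (HMGCS1, MVK, MSMO1, INSIG1, SCD and FADS2 were added and SC5D was lost), and the split over all genes went from 1358 higher and 1241 lower to 832 higher and 2805 lower. Relative to the median of all genes, the median of the members was -0.081 under either scaling. A change of scaling moves all genes by nearly the same amount, so this value could hardly differ and is no check of the fall.

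**Figure D1:**
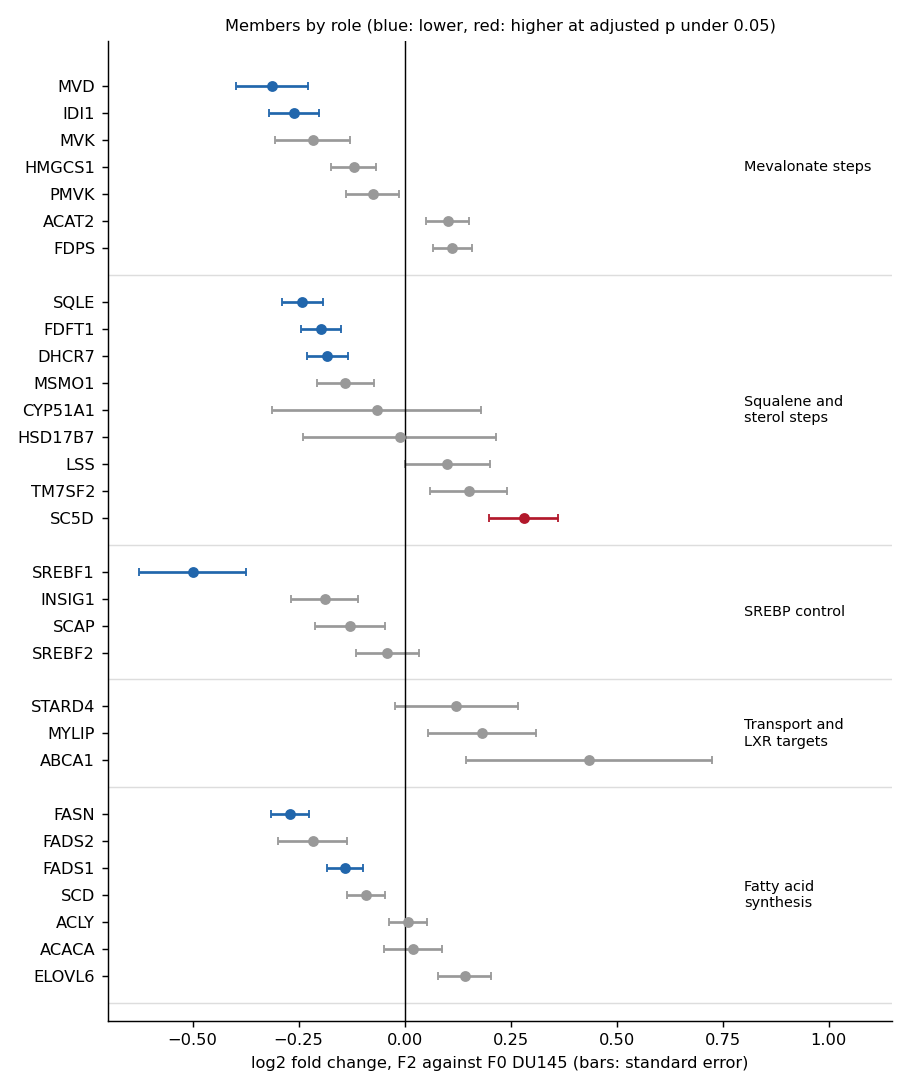
The change from F0 to F2 in DU145, as a log2 fold change (horizontal axis), is plotted for the 30 tested members, grouped by role, with bars of 1 standard error. The 8 members that fell (blue) lie in the mevalonate, sterol, SREBP control and fatty acid groups, SC5D is the 1 member that rose (red), and the 21 members in grey were not called.

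The mevalonate steps turn acetyl-CoA units into the isoprenoid farnesyl diphosphate. Of these 7 genes, 2 fell, 0 rose and 5 were not called. MVD encodes mevalonate diphosphate decarboxylase (chromosome 16, 88651935 to 88663161, minus strand, GRCh38). Its level was 22.9, 22.5 and 21.95 CPM in the F0 libraries and 17.6, 18.8 and 17.9 CPM in F2. All F2 values were therefore below all F0 values, and MVD fell by 0.31 on the log2 scale (standard error 0.084, edgeR adjusted p = 0.013). The call was lost without F0 replicate 2 (log2 fold change -0.31) and without F2 replicate 1 (-0.29), although the size hardly moved.

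IDI1 encodes isopentenyl diphosphate isomerase, which supplies the activated isoprene unit on which chains are built (chromosome 10, 1039152 to 1049170, minus strand). It stood at 62.2, 65.1 and 64.8 CPM in F0 and at 50.5, 54.3 and 55.4 CPM in F2. The populations did not overlap, and the fall of 16.6% in mean CPM (log2 fold change -0.26, standard error 0.059, edgeR adjusted p = 0.0040) was called in all 6 fits that left out 1 library.

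The other mevalonate genes moved by less. HMGCS1, the cytosolic HMG-CoA synthase, had 148, 152 and 154 CPM in F0 and 141, 128 and 148 CPM in F2, with the highest F2 library just under the lowest F0 library (log2 fold change -0.12, edgeR adjusted p = 0.13). The kinases MVK (-0.22, adjusted p = 0.10) and PMVK (-0.075, adjusted p = 0.45) were also lower in every F2 library without being called. FDPS, the farnesyl diphosphate synthase, and ACAT2, the cytosolic thiolase at the start of the route, had the opposite sign, at 0.11 (adjusted p = 0.0999) and 0.10 (adjusted p = 0.19). FDPS was higher in every F2 library, at 203, 189 and 194 CPM in F0 and 213, 206 and 214 CPM in F2, and it was called without F0 replicate 1 (0.14). Summed over the 7 genes, F0 had 634 ± 2.72 CPM and F2 had 627 ± 15.2 CPM (SD, n = 3 each), and the ranges of the populations overlapped.

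Squalene and the sterol ring are made by the next 9 genes. In this group 3 fell, 1 rose and 5 were not called. SQLE encodes squalene epoxidase, which starts the oxygen-dependent part of the route (chromosome 8, 124998497 to 125022283, plus strand). Its libraries were close together, at 111, 111 and 109 CPM in F0 and 94.9, 93.3 and 91.9 CPM in F2. SQLE fell by 0.24 on the log2 scale (standard error 0.048, edgeR adjusted p = 0.0014), and every fit with 1 library left out made the same call.

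FDFT1, the squalene synthase that commits farnesyl diphosphate to sterols, lies on the same chromosome (11795573 to 11839309, plus strand). Its values were 198, 211 and 209 CPM in F0 and 177, 174 and 186 CPM in F2. The fall was 12.8% of the F0 mean (log2 fold change -0.20, standard error 0.047, edgeR adjusted p = 0.0056), and it was called in 5 of the 6 fits with 1 library left out, with -0.18 and no call without F0 replicate 2.

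DHCR7 encodes the reductase of the last step of one branch, 7-dehydrocholesterol to cholesterol (chromosome 11, 71428193 to 71452868, minus strand). It had 138, 136 and 141 CPM in F0 and 127, 116 and 123 CPM in F2, again without overlap. The log2 fold change was -0.18 (standard error 0.049, edgeR adjusted p = 0.014), and -0.17 with no call when F0 replicate 3 was left out.

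SC5D, the sterol desaturase that acts just before DHCR7, was the member that rose (chromosome 11, 121292453 to 121308694, plus strand). It had 22.7, 27.0 and 26.1 CPM in F0 and 31.01, 29.5 and 31.6 CPM in F2. The F2 libraries were all above F0, and the rise was 0.28 on the log2 scale (standard error 0.081, edgeR adjusted p = 0.020). This call was among the least stable. It was lost without F0 replicate 1 (0.21), without F2 replicate 1 (0.28), without F2 replicate 3 (0.26) and under library size alone (0.19).

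Among the members of this group that were not called, MSMO1, a C4-methylsterol oxidase, was at -0.14 (edgeR adjusted p = 0.16), LSS, the lanosterol synthase, at 0.10 (adjusted p = 0.54) and TM7SF2, a sterol reductase, at 0.15 (adjusted p = 0.28). TM7SF2 had 33.1, 31.7 and 30.4 CPM in F0 and 40.9, 30.3 and 34.5 CPM in F2, so its second F2 library lay below all F0 libraries, and without that library it was called (0.25). CYP51A1 and HSD17B7 had few reads, between 37 and 90 counts per library, and their spread was wide. The SD was 37.6% of the mean for CYP51A1 in F2 and 32.3% for HSD17B7 in F0, where the counting error of an average library was 13.5% and 11.7%. Their standard errors, 0.25 for CYP51A1 and 0.23 for HSD17B7 on the log2 scale, were about the size of the changes in most called members. The pseudogene HSD17B7P2, a near copy of HSD17B7, held 16 counts over all libraries, and the 3 CYP51A1 pseudogenes held at most 5 each. The summed level of the 9 genes was 584 ± 10.3 CPM for F0 against 530 ± 10.7 CPM for F2 (SD, n = 3 each), a difference of -9.22% without overlap. The 3 genes that fell have the highest levels in this sum and weigh most in it. The median log2 fold change of the 9 genes was -0.066, with 6 negative and 3 positive.

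**Figure D2:**
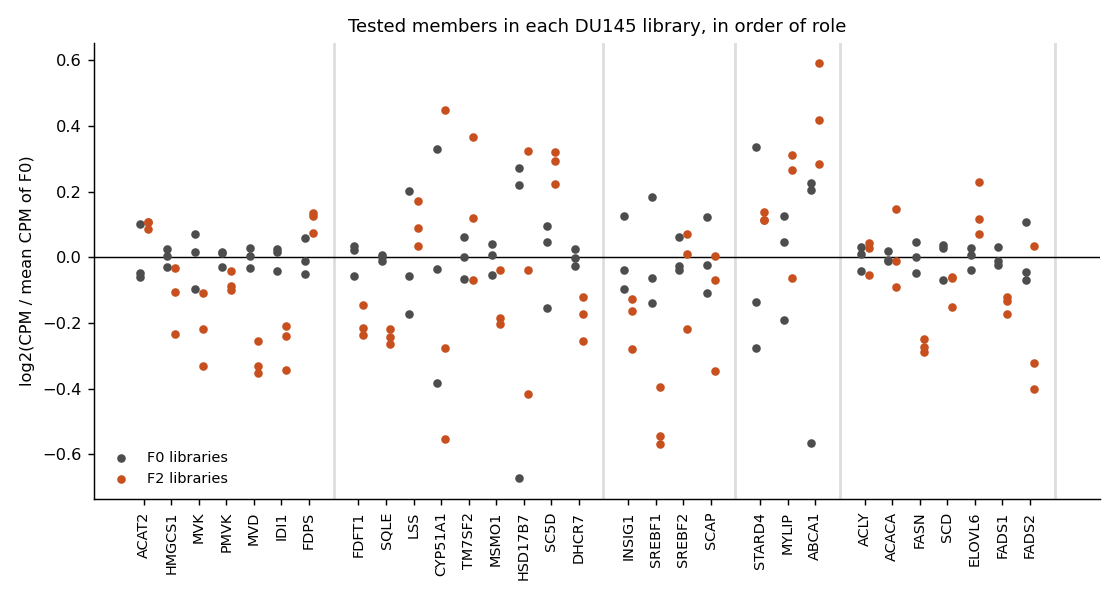
Each point is 1 DU145 library, plotted as log2 of its CPM over the mean CPM of F0 (vertical axis) for each tested member in order of role, with F0 in grey and F2 in orange. For MVD, IDI1, SQLE, FASN and the other members that fell, the 3 F2 points lie together below the F0 points, while the points of CYP51A1, HSD17B7 and ABCA1 are scattered.

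The control genes of the SREBP system number 4, of which SREBF1 fell and 3 were not called. SREBF1 encodes SREBP1 (chromosome 17, 17810399 to 17837002, minus strand). It had 10.2, 10.8 and 12.8 CPM in F0 and 8.57, 7.60 and 7.72 CPM in F2. Its fall was the largest among the called members, 29.3% of the F0 mean (log2 fold change -0.50, standard error 0.13, edgeR adjusted p = 0.0085). F0 replicate 3 held the highest value, and without it the log2 fold change was -0.40 and not called, while the other 5 such fits made the call.

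SREBF2, the gene of SREBP2 (chromosome 22, 41833079 to 41907308, plus strand), had 45.5, 42.4 and 42.8 CPM in F0 and 37.5, 45.7 and 43.9 CPM in F2. The populations overlapped, with the lowest and the highest value both in F2, and the log2 fold change was -0.040 (standard error 0.075, edgeR adjusted p = 0.76). The ratio of SREBF1 to SREBF2, looked at after the data were seen, was 0.225, 0.254 and 0.299 in F0 and 0.229, 0.166 and 0.176 in F2, and the populations overlapped. With 3 libraries against 3, an exact permutation test cannot give p below 0.1, so it could not show whether the 2 genes changed differently.

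INSIG1 encodes the sterol-sensing retention protein and is itself a known SREBP target (chromosome 7, 155297776 to 155310235, plus strand). It had 31.9, 30.7 and 35.9 CPM in F0 and 27.0, 30.1 and 29.3 CPM in F2. Every F2 library was below every F0 library, but the gap was narrow and the test did not call it (log2 fold change -0.19, standard error 0.079, edgeR adjusted p = 0.11). SCAP, the escort of the SREBPs, was at -0.13 (adjusted p = 0.31), with F2 replicates 1 and 2 within the F0 range and F2 replicate 3 below it. The sum over the 4 genes was 137 ± 4.48 CPM for F0 against 125 ± 7.56 CPM for F2 (SD, n = 3 each), a difference of -9.31% with overlap.

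Transport genes and LXR targets were the group with no call. STARD4, a carrier of cholesterol between membranes, was at 0.12 (edgeR adjusted p = 0.62) and MYLIP, an LXR-induced ubiquitin ligase that removes lipoprotein receptors from the cell surface, at 0.18 (adjusted p = 0.36). The exporter ABCA1 (chromosome 9, 104781002 to 104928237, minus strand) was barely expressed, with 26, 25 and 15 counts in F0 and 25, 27 and 31 counts in F2, or 1.54, 1.51 and 0.888 CPM against 1.598, 1.75 and 1.98 CPM. The F2 values were all higher, but the log2 fold change of 0.44 had a standard error of 0.29 (edgeR adjusted p = 0.33). ABCG1, a second exporter, had at most 4 counts in a library and was not tested. Together the 4 transport genes had 20.3 ± 2.34 CPM for F0 against 22.8 ± 1.64 CPM for F2 (SD, n = 3 each), a difference of 12.4% with overlap.

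Fatty acid genes, which SREBP1 is known to drive, made up the last 7 members, of which 2 fell, 0 rose and 5 were not called. FASN encodes fatty acid synthase, the enzyme that builds palmitate (chromosome 17, 82078333 to 82098332, minus strand). It had 229, 222 and 214 CPM in F0 and 181, 183 and 186 CPM in F2. The drop of 17.1% of the F0 mean was larger than the spread in either population (log2 fold change -0.27, standard error 0.045, edgeR adjusted p = 2.6e-04), and it was called in all 6 fits with 1 library left out.

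FADS1, the delta-5 desaturase of polyunsaturated fatty acids, had 355, 344 and 342 CPM in F0 and 319, 308 and 317 CPM in F2 (chromosome 11, 61799625 to 61829318, minus strand). It fell by 9.32% of the F0 mean (log2 fold change -0.14, standard error 0.042, edgeR adjusted p = 0.024). It kept its direction but lost the call in 4 of the 6 fits with 1 library left out, namely without F0 replicate 1 (-0.12), F0 replicate 2 (-0.15), F2 replicate 1 (-0.15) or F2 replicate 3 (-0.14).

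FADS2, the delta-6 desaturase, is annotated on the opposite strand over a span that contains all of FADS1 (61792980 to 61867354). It had 127, 129 and 143 CPM in F0 and 106, 136 and 101 CPM in F2. F2 replicate 2 lay within the F0 range and apart from the other F2 libraries, and FADS2 was not called (log2 fold change -0.22, standard error 0.081, edgeR adjusted p = 0.073). Without F2 replicate 2 it was called, at -0.36, and it was also called without F0 replicate 1 (-0.25) and with no filter on low counts (-0.21).

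The remaining fatty acid genes did not pass the test. SCD, the stearoyl-CoA desaturase and the member with the most counts, had 348, 375 and 373 CPM in F0 and 349, 329 and 350 CPM in F2 (-0.091, edgeR adjusted p = 0.18). The cytosolic supplier of acetyl-CoA, ACLY, was at 0.0073 (standard error 0.045, adjusted p = 0.94) and the carboxylase ACACA at 0.019 (standard error 0.068, adjusted p = 0.89). Under library size alone both had the opposite sign. The elongase ELOVL6 was higher in every F2 library, at 47.7, 49.1 and 49.9 CPM in F0 and 57.3, 53.1 and 51.4 CPM in F2, without being called (0.14, adjusted p = 0.13). Taken as a sum, the 7 genes came to 1446 ± 15.2 CPM for F0 against 1342 ± 13.5 CPM for F2 (SD, n = 3 each), a difference of -7.19% without overlap.

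**Figure D3:**
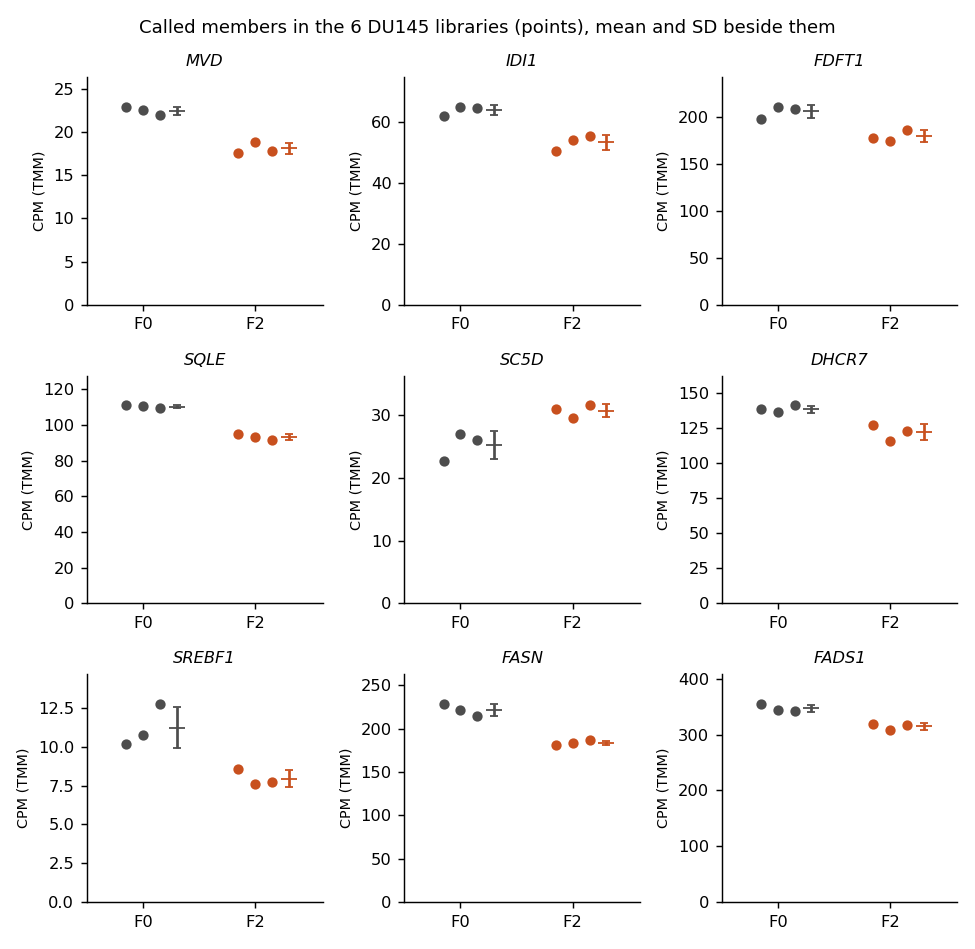
CPM after TMM scaling (vertical axes, from 0) in the 3 F0 (grey) and 3 F2 (orange) DU145 libraries is shown for the 9 called members, with the mean and SD beside the points. In each panel all F2 points lie on one side of all F0 points, below them in 8 panels and above them for SC5D.

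The highest values of the members were spread over all libraries, but several calls depended on a single library. The 30 tested members had their highest value of the population in F0 replicates 1, 2 and 3 for 12, 8 and 10 genes and in F2 replicates 1, 2 and 3 for 8, 8 and 14 genes. F2 replicate 2 was the lowest of its population for 14 members. Across the 6 fits that left out 1 library, the 9 called members always had the same direction, and between 6 and 9 of them were called each time. Counting all members, the number that fell went from 8 to 5 without F0 replicate 2, and the number that rose was 0 without F2 replicate 1 or F2 replicate 3 and 2 without F2 replicate 2. Over all genes, the calls went from 2599 to 1670 without F0 replicate 2.

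Some members share their locus with another gene, and the sources used here do not say whether strand was used in counting. Reads of such pairs may therefore be set aside as ambiguous or counted for the neighbour. Overlap here is of whole gene spans, introns included, and whether exons overlap was not checked. The 3′ end of ACAT2 lies within TCP1, the 3′ end of SREBF1 within RAI1, and the 3′ end of FADS1 within FADS2, each on the opposite strand. Antisense RNAs also cover the 3′ ends of HMGCS1, IDI1, FDPS and LSS, with 0, 18, 102 and 7 counts over the 6 libraries. TCP1 had 30486 counts over the 6 libraries against 13443 for ACAT2, and its log2 fold change was 0.029 (edgeR adjusted p = 0.71). RAI1 had 878 counts against 939 for SREBF1. An antisense RNA within the DHCR7 locus, AP002387.1, had 3031 counts against 12680 for DHCR7, but does not cover its 3′ end. Strand cannot separate neighbours on the same strand. Among these, FEN1 overlaps FADS2 (25170 counts against 12032) and VPS51 overlaps TM7SF2 (6223 against 3245). Neither covers the 3′ end of the member. AC000120.2 and AC000120.3 overlap CYP51A1 on its strand without covering its 3′ end, and were not among the genes counted. Whether reads of such a neighbour, or reads set aside as ambiguous, bear on any fold change above was not tested.

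Beyond the members, 24 genes of the same pathways were listed from textbook roles (sterol and fatty acid synthesis, SREBP processing, LXR and cholesterol trafficking), and all 24 were tested. Of these, 5 fell, 4 rose and 15 were not called, with a median log2 fold change of -0.12. The shares were 20.8% lower and 16.7% higher, beside 8.67% and 9.49% of all genes. Whether the 2 lists differ was not tested.

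The 5 genes that fell serve lipid uptake, activation, carboxylation and trafficking. SCARB1, the receptor for cholesterol of high-density lipoprotein, had 86.1, 89.5 and 89.8 CPM in F0 and 69.1, 74.1 and 73.5 CPM in F2 (log2 fold change -0.29, standard error 0.053, edgeR adjusted p = 6.2e-04). TMEM97, a sterol-regulated membrane protein also known as the sigma-2 receptor, fell from 123 ± 11.9 to 98.7 ± 8.72 CPM (SD, n = 3 each, log2 fold change -0.32, edgeR adjusted p = 0.0026). ACSL3, which activates long-chain fatty acids, fell by 0.28 (adjusted p = 0.0012), and ACACB, the mitochondrial relative of ACACA, by 0.45 (adjusted p = 0.0060). These calls were made in all 6 fits with 1 library left out.

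NPC1 and NPC2, which together move cholesterol out of lysosomes, went in opposite directions. NPC1 had 105, 112 and 110 CPM in F0 and 94.8, 97.2 and 92.1 CPM in F2, a fall of 0.20 (standard error 0.050, edgeR adjusted p = 0.0079) that was not called without F0 replicate 2 (-0.18). NPC2 had 172, 181 and 192 CPM in F0 and 216, 229 and 206 CPM in F2, a rise of 0.25 (standard error 0.052, edgeR adjusted p = 0.0017) that was called in all such fits. Neither pair of populations overlapped.

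LPIN1, a phosphatidic acid phosphatase that also acts on SREBP activity in the nucleus, had the largest rise of the list, from 42.2, 41.1 and 39.5 CPM in F0 to 58.8, 53.6 and 57.1 CPM in F2 (log2 fold change 0.47, standard error 0.063, edgeR adjusted p = 2.8e-05). EBP, the sterol isomerase that acts before SC5D, rose from 85.6 ± 4.31 to 100.4 ± 5.56 CPM (SD, n = 3 each, log2 fold change 0.23, adjusted p = 0.0072). The INSIG1 relative INSIG2 rose from 12.0 ± 2.48 to 16.3 ± 3.32 CPM (0.45, adjusted p = 0.039). Its populations overlapped, and the call was lost without F0 replicate 1 (0.30), F0 replicate 2 (0.46) or F2 replicate 3 (0.27). EBP and INSIG2 were not called under library size alone (0.14 and 0.36).

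The 15 others include the SREBP proteases MBTPS1 (-0.12, edgeR adjusted p = 0.14) and MBTPS2 (-0.21, adjusted p = 0.13) and the LXR genes NR1H2 (-0.098, adjusted p = 0.38) and NR1H3 (-0.27, adjusted p = 0.49). NR1H3 was low, at 2.66 ± 0.255 CPM for F0 against 2.21 ± 0.675 CPM for F2 (SD, n = 3 each).

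**Figure D4:**
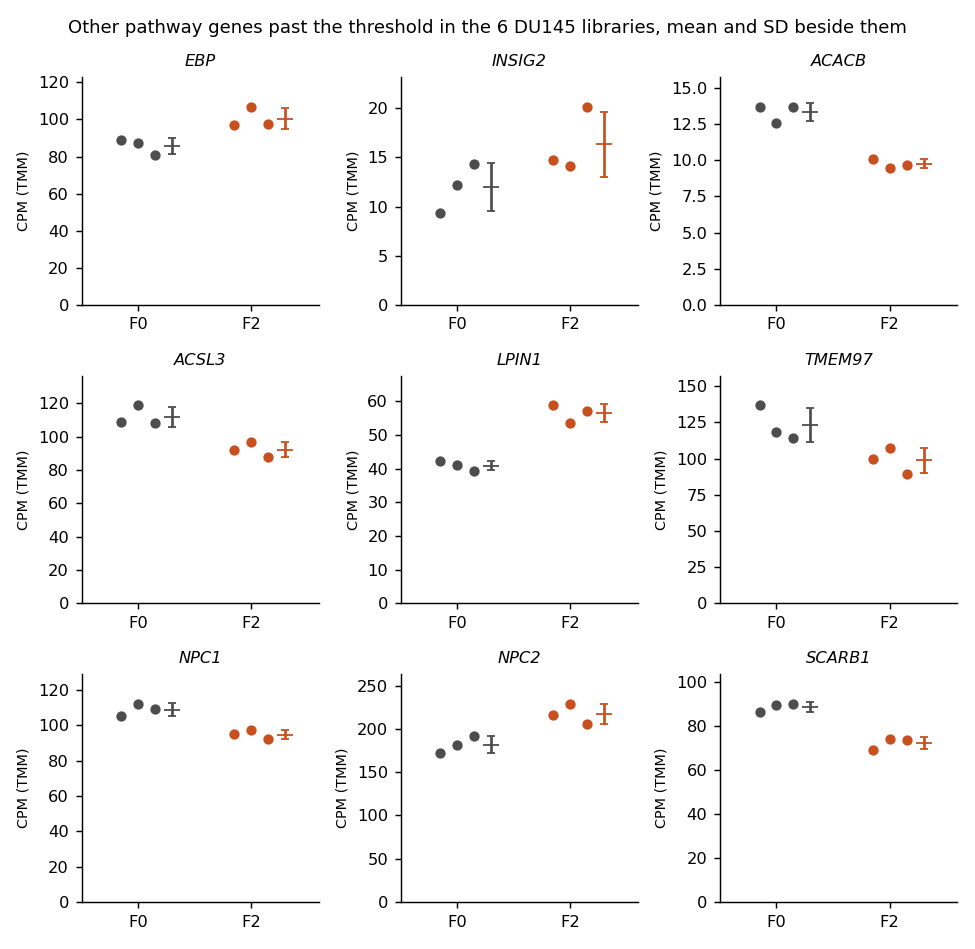
CPM after TMM scaling (vertical axes, from 0) in the 3 F0 (grey) and 3 F2 (orange) DU145 libraries is shown for the 9 called genes of the further pathway list, with the mean and SD beside the points. ACACB, ACSL3, TMEM97, NPC1 and SCARB1 are lower in F2, EBP, LPIN1 and NPC2 are higher, and the points of INSIG2 overlap.

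**Figure D5:**
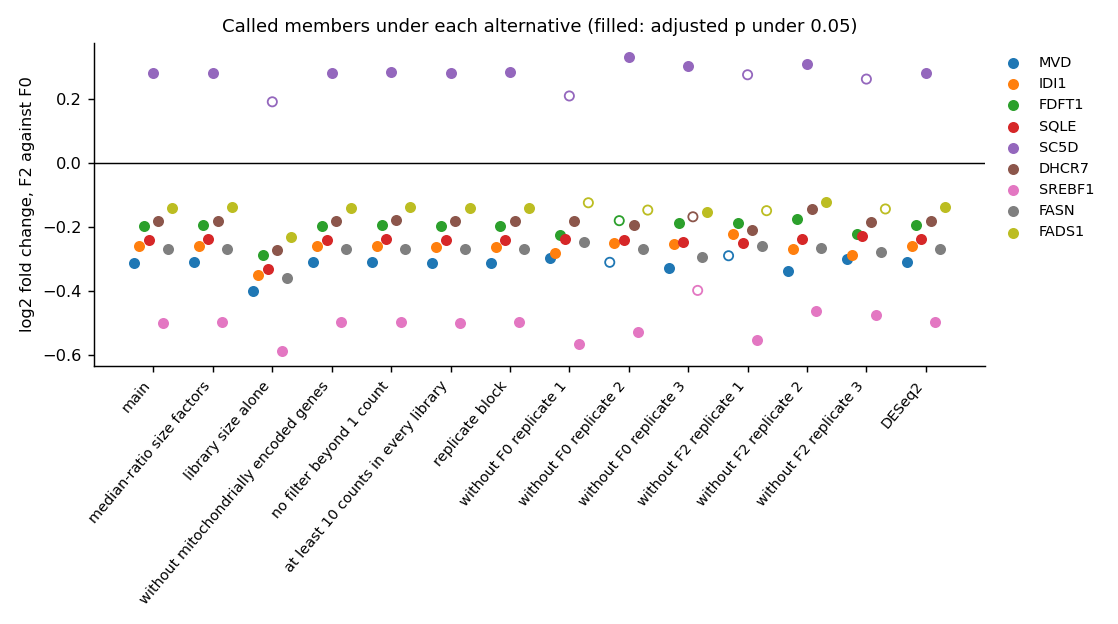
The log2 fold change of the 9 called members (vertical axis) is plotted under each alternative (horizontal axis), with filled points where the adjusted p was under 0.05 and open points elsewhere. SC5D stays above 0 and the other 8 below 0 under every alternative, and open points appear where a library was left out and, for SC5D, under library size alone.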

How the data were processed

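The authors used the Bluebee platform to align and count the reads of the 6 DU145 libraries, and raw counts per gene were deposited without normalization. The submitters' processing notes name STAR 2.5.2a, HTSeq 0.6.0 and GRCh38. Annotation release and strand setting are not given in the sources used here. The rat table was not used, because its identifiers could not be paired with symbols. Lines that name no gene were left out (reads outside genes and ambiguous reads, whose shares are given by population above), as were 92 spike-in rows at 0. Symbols were matched to 56104 of 60107 identifiers, and positions come from GENCODE release 29.

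Tests used R 4.3.3, edgeR 4.0.16 (filterByExpr with minimum count 10 and total 15, TMM, quasi-likelihood F-test, population as the only term) and, as an alternative, DESeq2 1.42.0. The code was tested on simulated data. Standard errors are the log2 fold change over the root of F. Other alternatives were scaling, filters, a replicate block and leaving out 1 library. No pair of replicates was as close as sampling noise (chi-square per degree of freedom at least 2.20). Members and lists were chosen with earlier results of these data known. All called members, with INSIG1, SREBF1, SREBF2, ABCA1 and FASN, are given by library, and called genes of the further list are named. Human promoter sequences were not used here, and some genes of the pathway are not reported here.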

Additional observations from a re-analysis of the deposited data

How the results depend on the processing

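The 9 called members had the same direction in all 13 alternatives, and all 9 were called with median-ratio size factors, without mitochondrially encoded genes, with no filter beyond 1 count, with at least 10 counts in every library, with the replicate block and with DESeq2. Library size alone moved most: 14 members were called, 0 higher and 14 lower, with a median of -0.17 against -0.083, where the median of all genes moved by about as much (-0.092). Leaving out 1 library gave between 6 and 11 called members, between 5 and 9 lower, between 0 and 2 higher and between 1670 and 2621 called genes in all. Each of these fits had 1 library fewer, and the cause of the differences between them and the main fit was not tested. With the replicate block, 10 members were called, FADS2 being the addition, at -0.22, and 2867 genes in all. Same-numbered F0 and F2 libraries did not deviate together (correlations between -0.015 and 0.045). The labels do not tie the numbers to pairs, and these values cannot settle whether the samples were paired. DESeq2 called 2091 genes.

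Signs turned only in members that were not called. They were ACLY (-0.083) and ACACA (-0.071) under library size alone, and, with 1 library left out, ACLY (from -0.013 to 0.040), ACACA (from -0.048 to 0.073), CYP51A1 (from -0.41 to 0.13), HSD17B7 (from -0.26 to 0.16), STARD4 (from -2.8e-04 to 0.32) and SREBF2 (from -0.096 to 0.042). With the counts of an average library, the counting error alone was 1.32% for SCD and 20.1% for ABCA1, which limits what could be seen in the low members. PAIII orthologs and promoter motifs were not run.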

Other observations

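Ratios of related genes were computed in each library for 5 pairs picked after the data were seen, some of them for the unlike changes of their genes. With 3 libraries against 3, an exact permutation test cannot give p below 0.1, so none of the 5 could pass and the ratios are given as values. The ratio of NPC1 to NPC2 was 0.610, 0.620 and 0.571 in F0 and 0.439, 0.425 and 0.448 in F2. The ratio of INSIG1 to INSIG2 went from 3.40, 2.51 and 2.504 in F0 to 1.83, 2.13 and 1.46 in F2, and that of ACACB to ACACA from 0.292, 0.274 and 0.297 to 0.220, 0.218 and 0.189. For each of these 3 pairs every F2 library lay below every F0 library. The ratio of FADS1 to FADS2 overlapped between the populations, at 2.62 ± 0.213 in F0 and 2.80 ± 0.474 in F2 (SD, n = 3 each), as did that of SREBF1 to SREBF2.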
